A study of Mus musculus with 12 samples.

Results

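The genes described here are 10 genes of the immediate early response, Egr1, Egr2, Egr3, Nab1, Nab2, Fos, Fosb, Jun, Junb and Ier2. They were taken by name as all probe sets that the platform annotation gives to a single one of these genes, which gave 14 of the 28898 probe sets with 1 gene (10 of 17097 genes). Jun and Egr2 had 2 probe sets each, Nab1 had 3, and each of the others had 1. Their levels were read on 12 oligonucleotide arrays of total RNA from murine acute myeloid leukaemia (AML) cells, 4 arrays for each of 3 lines. The lines TB13 and TB14 are labelled as expressing Trib1 and Bcl11a, and the line called Trib1, with which they are compared, as expressing Trib1 alone. All of them were untreated and grown in medium with 10% serum and 5 ng/ml interleukin-3. Trib1 is a pseudokinase that leads the transcription factor C/EBPalpha to degradation, and Bcl11a is a zinc finger protein that represses transcription. There was 1 line without Bcl11a, and whether a line was a single clone was not stated. The labels do not say if the 4 arrays of a line stand for separate cultures, so each p-value below speaks of the array-to-array spread alone, which can be purely technical.

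Immediate early genes are transcribed within minutes of a growth factor or cytokine signal, without new protein synthesis, through factors such as SRF, the ternary complex factors of the Elk family and CREB that are already present in the cell. Many of their products are transcription factors. Egr proteins bind GC-rich elements through zinc fingers, and the Nab proteins are corepressors that bind Egr proteins and limit them. Fos and Jun proteins pair through leucine zippers to form the dimer called AP-1. In mouse myeloid progenitors, PU.1, encoded by Spi1, works with Egr factors and Nab2 on macrophage genes, against the neutrophil regulator Gfi1. The title of the series sets Bcl11a against the activity of PU.1.

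Values are intensities on a linear scale, and log2 changes are on the scale log2(intensity + 12.7). Calls rest on limma, with Benjamini-Hochberg adjustment and a threshold of 0.05, fitted to the 17475 single-gene probe sets above the median of their array on at least 4 arrays. The TB13 arrays stood apart. Their 18 hybridization controls, transcripts added in the laboratory, had a median log2 change of -0.93 against Trib1, with 17 lower, and in TB14 the median was 0.0010. The median change of all tested probe sets was -0.39 in TB13 and 0.0084 in TB14, and quantile scaling put the TB13 median at -0.0305. Changes that involve TB13 are given on both scales, and some also after a calibration of each array on its hybridization controls, which put the TB13 median of all probe sets at 0.41. The 10 myeloid markers examined, Ptprc and Itgam among them, lay above the array median on all 12 arrays, as did 3 of 6 mast cell markers (Cpa3, Ms4a2 and Cma1), 3 of 4 megakaryocyte markers (Pf4, Itga2b and Gp9), 2 of 4 endothelial (Pecam1 and Kdr), 2 of 3 erythroid (Hba-a1 and Epor), 2 of 4 T cell (Cd3e and Cd3d), 1 of 4 B cell (Cd79a) and 1 of 5 stromal markers (Pdgfrb). The 4 endothelial markers summed to 341 to 391 in TB13, 608 to 651 in TB14 and 809 to 840.2 in Trib1, the order of several genes below. The 3 erythroid markers summed to 1602 to 1733 in TB13, 1533 to 1561 in TB14 and 916 to 967 in Trib1. The 6 mast cell markers summed to 6346 to 6664, 6811 to 6884 and 6150 to 6229 in these lines. The 4 megakaryocyte markers summed to 705 to 790, 857 to 877 and 886 to 947. In each of these sums both lines with Bcl11a lay on the same side of Trib1, but not in the others. The 4 T cell markers split, at 202 to 248 in TB13, 125 to 129 in TB14 and 187 to 199 in Trib1. In the B cell and stromal sums TB14 overlapped Trib1. The B cell sums were 123 to 139 in TB13, 86.4 to 93.9 in TB14 and 90.5 to 94.4 in Trib1. The stromal sums were 109 to 122.4, 123 to 132 and 122.9 to 141. The 10 myeloid markers split as well, at 6755 to 6860 in TB13, 10547 to 10729 in TB14 and 8580 to 8742 in Trib1. All sums are as deposited and were not computed after quantile scaling, so the place of TB13 in them rests on that scale. Their part in the results was not tested. The 4 Bcl11a probe sets read 6.70 to 21.5 over all arrays, with 12.5 to 15.7 in TB14 and 14.4 to 21.5 in Trib1 for the brightest of them, and did not check the labels.

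Of the 14 probe sets, 10 passed the filter and were tested. Both Egr2 probe sets, Fosb and the dimmest of Nab1 did not pass it. Nab2 and the dimmer Jun probe set lay below the array median on all 4 TB13 arrays and passed through the other lines. In TB14 against Trib1, 7 of the 10 were lower, 2 were higher and 1, Egr3, was not called, where 20% of all tested probe sets were lower and 29.6% higher. The counts were the same after quantile scaling, where 18.9% were lower and 25% higher, and the same 7 and 2 had array ranges apart from Trib1, where 23.5% of all probe sets lay wholly below and 33.2% wholly above. In TB13 against Trib1, 8 were lower and 2 higher as deposited, where 64.4% of all were lower and 26% higher. The same 8 and 2 had array ranges apart from Trib1, where 62.1% of all lay below and 23.6% above. After quantile scaling 6 were lower, 2 higher and 2 not called in TB13, where 43% of all were lower and 37% higher. The probe sets of a gene share its transcript, so the 7 lower probe sets in TB14 stood for 5 genes, Egr1, Nab1, Jun, Junb and Ier2.

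**Figure D1:**
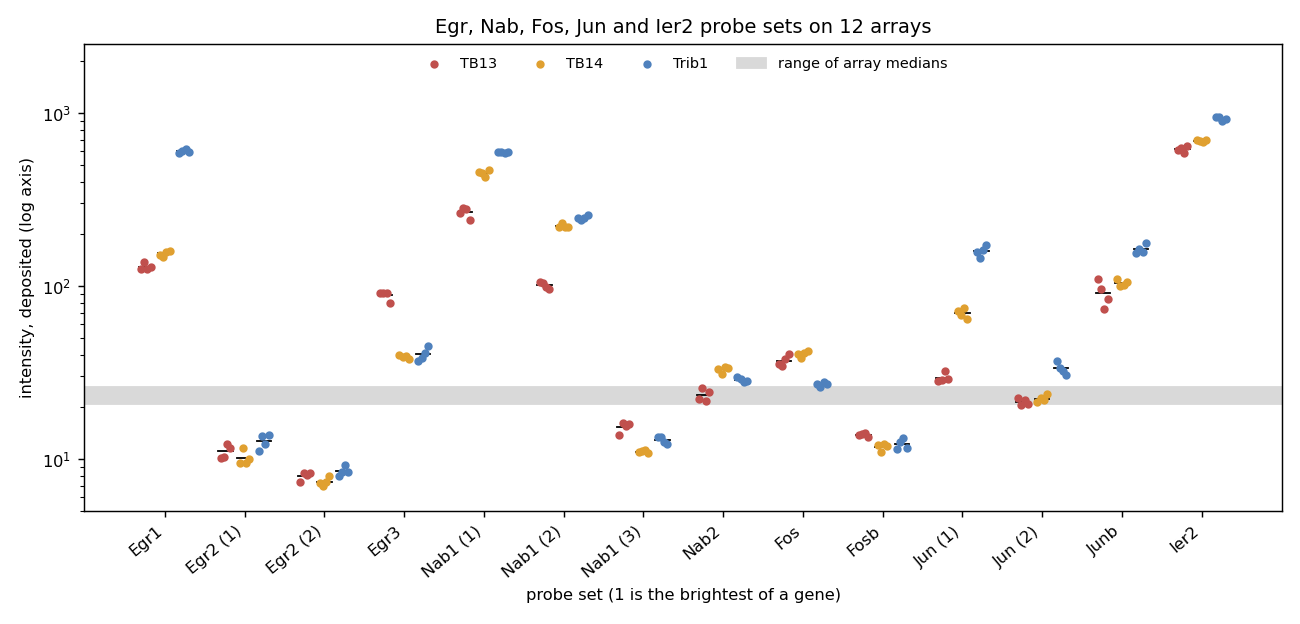
Deposited intensity (log axis) of all 14 probe sets on each array, with points for the 4 arrays of TB13, TB14 and Trib1, black bars for their means, and the range of the 12 array medians in grey. Egr1 sits between 124 and 159 on the 8 TB13 and TB14 arrays and between 589.7 and 619 on the Trib1 arrays, while Egr2 and Fosb lie below the grey band on every array.

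Egr1, the best known of the Egr activators, was far lower in both lines with Bcl11a. It read 124, 137, 126 and 128 on the TB13 arrays, 152, 148, 157 and 159 on the TB14 arrays, and 589.7, 605, 619 and 596 on the Trib1 arrays. All 8 arrays of TB13 and TB14 lay below the Trib1 range. The linear ratio to Trib1 was 0.214 in TB13 and 0.256 in TB14. On the log2 scale Egr1 changed by -1.88 ± 0.041 in TB14 (SE; limma adjusted p = 5.69e-18), the 51st lowest change of the 17475. In TB13 it changed by -2.12 ± 0.041 as deposited (limma adjusted p = 6.22e-19) and by -1.41 ± 0.039 after quantile scaling (2.11e-14), and calibration on the hybridization controls gave -1.15.

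Egr3, a related zinc finger factor, did not follow Egr1. Its values were 91.2, 91.4, 91.2 and 79.8 in TB13, 39.8, 38.9, 39.2 and 37.6 in TB14, and 37.0, 38.2, 41.0 and 44.7 in Trib1. All TB13 arrays lay above all others, and the TB14 and Trib1 ranges overlapped. The rise in TB13 was 0.93 ± 0.057 on the log2 scale as deposited (SE; limma adjusted p = 6.90e-12) and 1.33 ± 0.063 after quantile scaling (1.23e-11). In TB14 the change was -0.035 ± 0.057 (limma adjusted p = 0.661). Egr2, which acts with Egr1 in macrophage precursors, stayed dim, at 9.44 to 13.7 for its brighter and 6.94 to 9.20 for its dimmer probe set over all 12 arrays, against array medians of 20.8 to 25.9. Neither was tested, and at this brightness the arrays could not show whether Egr2 differed.

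The corepressor gene Nab1 was lower in both lines with Bcl11a, though less than Egr1. Its brightest probe set read 265, 282, 278 and 240.2 in TB13, 454, 447, 425 and 465 in TB14, and 595, 590.4, 585 and 593 in Trib1. The 3 ranges did not overlap, with TB13 lowest and Trib1 highest as deposited. Nab1 fell by 0.39 in TB14 (SE 0.043; limma adjusted p = 2.25e-07), and in TB13 by 1.12 as deposited (6.58e-15) and 0.40 after quantile scaling (3.38e-08). The second Nab1 probe set gave the same direction with another size. It averaged 101 ± 4.21 in TB13, 222 ± 4.98 in TB14 and 248 ± 7.73 in Trib1 (SD, n = 4 each), which in TB14 was a log2 change of -0.15 (limma adjusted p = 0.00699). The third, below every array median, read 13.7 to 16.2 in TB13, 10.8 to 11.2 in TB14 and 12.2 to 13.4 in Trib1 and was not tested.

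Nab2, the corepressor that Egr proteins themselves induce, split between the lines. It read 22.2, 25.6, 21.7 and 24.5 in TB13, 33.1, 31.1, 34.0 and 33.6 in TB14, and 29.9, 29.0, 27.7 and 28.2 in Trib1. TB13 lay below and TB14 above the Trib1 range, and all values were close to the array medians. The log2 change was 0.14 ± 0.047 in TB14 (SE; limma adjusted p = 0.0175), a call that ended without Trib1 replicate 3 (0.0529) or without TB14 replicate 3 (0.0521). In TB13 it was -0.20 ± 0.047 as deposited (limma adjusted p = 0.000601) and -0.36 ± 0.045 after quantile scaling (1.57e-06). Between the Bcl11a lines Nab2 was 0.34 higher in TB14 than in TB13 as deposited and 0.50 higher after quantile scaling (limma adjusted p = 1.28e-06 and 2.97e-08).

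**Figure D2:**
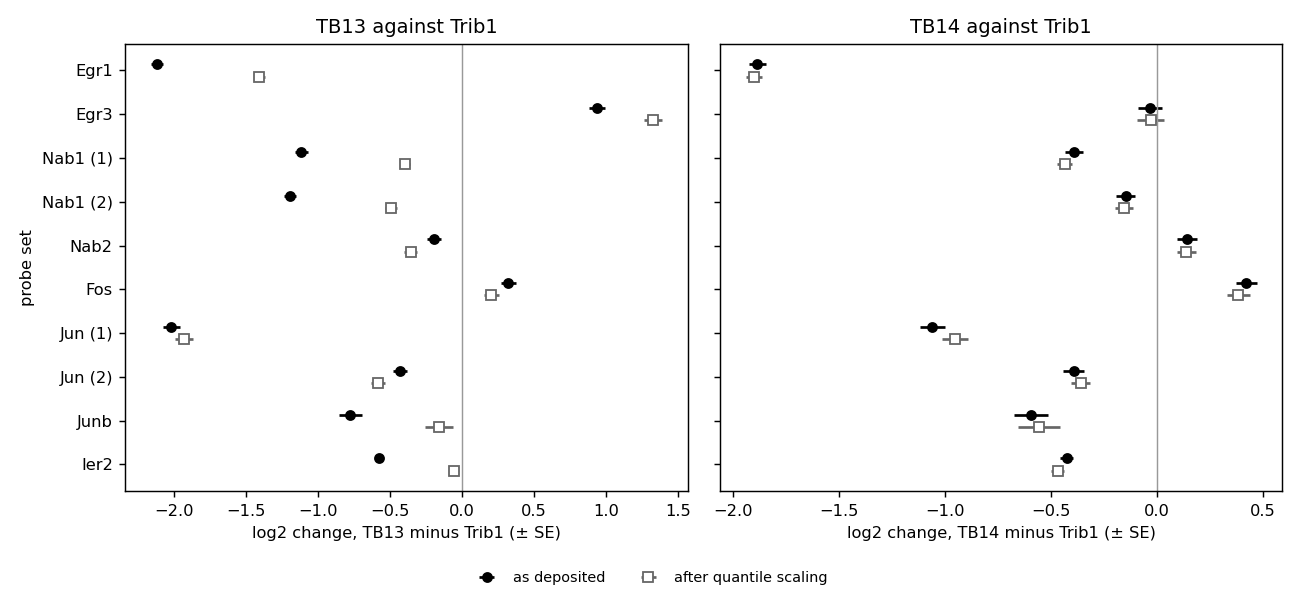
Log2 change of each tested probe set against Trib1 with its SE, for TB13 on the left and TB14 on the right, as deposited (filled circles) and after quantile scaling (open squares). In TB14 the 2 scalings nearly coincide, with Egr1 at -1.88 and -1.90, whereas in TB13 Egr1 stands at -2.12 and -1.41 and Ier2 at -0.58 and -0.060.

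Fos, the founding member of its family and a partner of Jun in AP-1, was the 1 gene of the 10 called higher in both lines with Bcl11a. It read 35.1, 34.2, 37.8 and 40.5 in TB13, 40.4, 38.2, 41.0 and 42.2 in TB14, and 27.0, 25.98, 27.8 and 27.2 in Trib1. Each of the 8 arrays with Bcl11a lay above the Trib1 range, at low brightness throughout. Fos rose by 0.42 ± 0.049 in TB14 (SE; limma adjusted p = 6.08e-07), and in TB13 by 0.32 ± 0.049 as deposited (5.39e-06) and 0.20 ± 0.054 after quantile scaling (0.00253). The array medians were higher too in TB13, at 25.5 to 25.9, against 21.1 to 21.4 in Trib1, and the part of this in the TB13 value was not tested. In TB14 they were 20.8 to 21.1. Fosb, a second Fos protein, read 13.3 to 14.1 in TB13, 10.96 to 12.2 in TB14 and 11.4 to 13.2 in Trib1, below every array median, and was not tested.

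Jun, which pairs with Fos in AP-1 and activates its own promoter, was lower in both lines. Its brighter probe set read 28.1, 28.6, 32.3 and 28.9 in TB13, 71.3, 67.5, 74.3 and 64.5 in TB14, and 157, 145, 160.2 and 172 in Trib1. The lines formed 3 separate ranges, and the TB13 values lay just above the array medians. The linear ratio to Trib1 was 0.186 in TB13 and 0.438 in TB14. Jun changed by -1.06 ± 0.059 in TB14 (SE; limma adjusted p = 1.12e-11), and in TB13 by -2.02 ± 0.059 as deposited (1.82e-16) and -1.93 ± 0.062 after quantile scaling (1.16e-13). Calibration on the hybridization controls gave -0.82 in TB13.

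The dimmer Jun probe set gave the same direction and a smaller change. It read 22.4, 20.4, 21.9 and 20.7 in TB13, 21.2, 22.5, 21.8 and 23.7 in TB14, and 37.0, 33.5, 32.3 and 30.5 in Trib1. Its TB13 and TB14 ranges overlapped close to the array medians, and TB14 minus TB13 was 0.040 as deposited (limma adjusted p = 0.425) and 0.22 after quantile scaling (0.000303). The log2 change was -0.39 in TB14 and -0.43 in TB13 as deposited (limma adjusted p = 8.93e-07 and 5.21e-08), and -0.59 in TB13 after quantile scaling.

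Junb, a Jun relative that can oppose Jun, was lower in TB14, and in TB13 its change depended on the scaling. The values were 109, 96.4, 73.6 and 84.3 in TB13, 109.8, 99.5, 101 and 106 in TB14, and 155, 164, 158 and 177 in Trib1. All arrays with Bcl11a lay below the Trib1 range, and TB13, with an SD of 15.4, spread more widely than TB14, with 4.74. The log2 change in TB14 was -0.59 ± 0.079 (SE; limma adjusted p = 3.25e-06). In TB13 it was -0.78 ± 0.079 as deposited (1.84e-08), but -0.16 ± 0.097 after quantile scaling (limma adjusted p = 0.143), and calibration on the hybridization controls turned it to 0.32 (0.000387).

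Ier2, an immediate early gene known for its fast and short induction, was lower in TB14, and in TB13 not on every scale. It read 611, 630.2, 589 and 645 in TB13, 694, 692, 675 and 694 in TB14, and 951, 950.3, 894 and 924 in Trib1, again with all arrays with Bcl11a below the Trib1 range. Ier2 fell by 0.43 in TB14 (SE 0.030; limma adjusted p = 4.48e-10). In TB13 the log2 change was -0.58 as deposited (6.26e-13), -0.060 after quantile scaling (limma adjusted p = 0.0812), and 0.063 when calibrated (0.242).

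The contrast that the design names sets the mean of both lines with Bcl11a against Trib1. Here 7 of the 10 tested probe sets were lower and 2 higher as deposited, where 55.1% of all were lower and 25.9% higher. For 7 probe sets all 8 arrays with Bcl11a lay below the Trib1 range and for 1, Fos, above it, where 19.3% and 3.22% of all did. The median log2 change was -0.59 for the 10 probe sets and -0.14 for all. After quantile scaling 8 were lower and 2 higher, where 33.6% of all were lower and 34.5% higher, with medians of -0.34 and 0.012. The change over both lines after quantile scaling was -1.66 ± 0.034 for Egr1 and -1.44 ± 0.054 for the brighter Jun probe set (SE; limma adjusted p = 4.65e-16 and 9.19e-13). Junb changed by -0.36, Ier2 by -0.26, the brightest Nab1 probe set by -0.42 and Fos by 0.29 on the same scale. Egr3, at 0.65, took its change from TB13. These SEs leave out the difference between TB13 and TB14. With the mean of each line taken as 1 sample, Trib1 is a group of 1, so such a fit cannot say which members differ.

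TB14 and TB13 carry the same labels, and most probe sets of the array differed between them. As deposited 7 of the 10 tested probe sets were higher in TB14 than in TB13 and 1 lower, where 65.2% of all were higher and 26% lower. Array ranges lay apart for 6 higher and 1 lower, where 63.3% and 23.9% of all did. After quantile scaling 5 were higher and 4 lower, where 44.8% of all were higher and 35.9% lower. The shares called were thus close to those of all probe sets. Egr3 was lower in TB14 under each scaling that gave it a value, with log2 changes of -0.97 as deposited and -1.36 after quantile scaling (limma adjusted p = 3.54e-12 and 9.50e-12). The brighter Jun probe set was higher in TB14 by 0.96 and 0.98 (6.73e-12 and 4.18e-10), with a linear ratio of 2.36, but changed by -0.30 when calibrated on the controls. For Egr1, Junb, Ier2 and the brightest Nab1 probe set the direction rested on the scaling. Egr1 was 0.24 higher in TB14 as deposited and changed by -0.49 after quantile scaling, and Ier2 by 0.15 and then by -0.41. The Nab1 probe set was 0.73 higher in TB14 as deposited (limma adjusted p = 3.30e-12), a call that ended after quantile scaling (-0.037; limma adjusted p = 0.347). The Junb call as deposited, 0.18 higher in TB14 (limma adjusted p = 0.0362), ended without TB13 replicate 3 (0.176), TB13 replicate 4 (0.0868), TB14 replicate 1 (0.0951) or TB14 replicate 4 (0.0723).

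**Figure D3:**
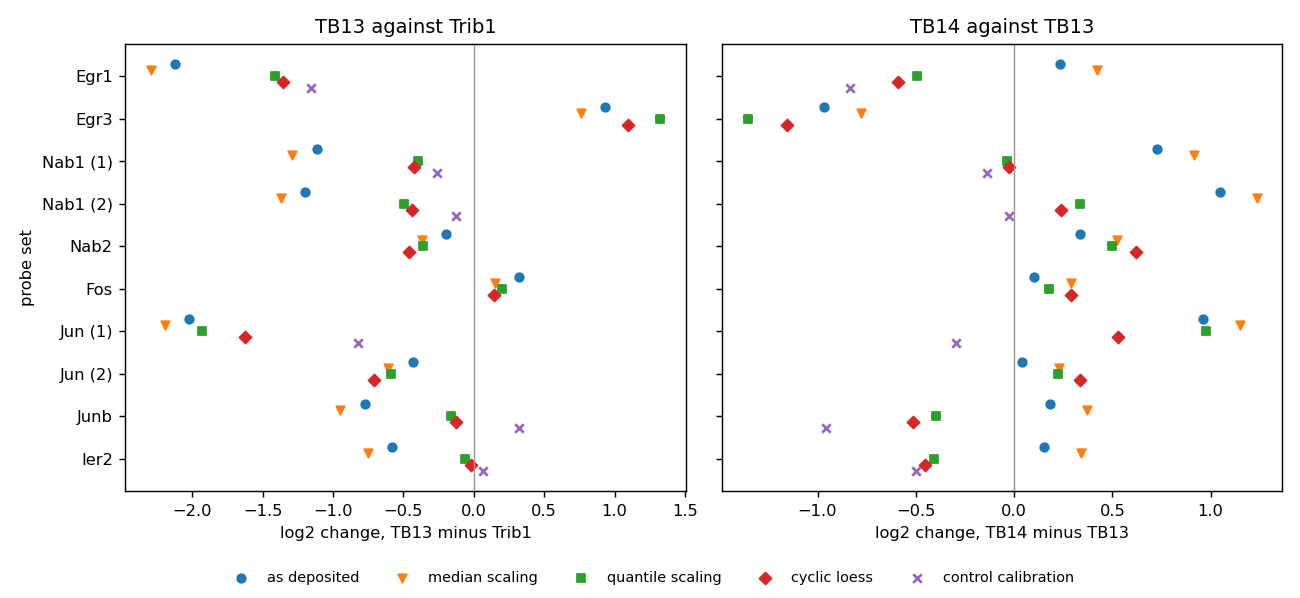
Log2 change of each tested probe set under 5 scalings, TB13 minus Trib1 on the left and TB14 minus TB13 on the right. Egr1 and the brighter Jun probe set stay left of 0 in TB13 under every scaling, from -2.29 to -1.15 for Egr1 and from -2.19 to -0.82 for Jun, while Junb and Ier2 cross 0. Crosses are missing for the 4 probe sets dimmer than the hybridization controls.

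Promoter sequence from RefSeq (GRCm38.p6) was at hand for 7 of the 10 genes, as windows of 250 bases before to 50 after each annotated start. It is shown for Jun and Junb, lower in TB14, for Nab1, also lower, and for Fos, which was higher. The aim was to set motif matches close to the starts side by side, and elements farther away lie outside these windows. The windows are chr4:95052173-95052472 (minus strand) for Jun, chr8:84978699-84978998 (minus strand) for Junb, chr1:52500399-52500698 (minus strand) for Nab1 and chr12:85473640-85473939 (plus strand) for Fos. Each is written 5′ to 3′ along the gene, and capitals mark matches on either strand to 9 motifs. These are TGACG, the core of the cyclic AMP element, the AP-1 element TGACTCA, the AP-1-like element TGACATCA known from the Jun promoter, the Egr element GCGNGGGCG, the CArG box bound by SRF, an ETS core CGGAAG, a PU.1-like core GAGGAA, a BCL11A-like core TGACCA and the TATA element TATAAA. No matches overlapped in these 4 windows.
Jun: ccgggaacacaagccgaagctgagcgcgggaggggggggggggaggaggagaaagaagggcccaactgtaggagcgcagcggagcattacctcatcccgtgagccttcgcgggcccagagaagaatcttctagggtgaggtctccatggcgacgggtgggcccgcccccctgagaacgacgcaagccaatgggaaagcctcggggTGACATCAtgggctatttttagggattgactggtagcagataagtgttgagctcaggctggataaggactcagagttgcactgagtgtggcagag
Junb: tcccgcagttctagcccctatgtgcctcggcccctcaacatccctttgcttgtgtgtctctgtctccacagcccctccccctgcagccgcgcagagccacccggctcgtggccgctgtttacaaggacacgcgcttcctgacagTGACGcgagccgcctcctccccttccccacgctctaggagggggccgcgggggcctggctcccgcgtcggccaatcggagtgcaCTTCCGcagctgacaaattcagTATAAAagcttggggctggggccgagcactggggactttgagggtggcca
Nab1: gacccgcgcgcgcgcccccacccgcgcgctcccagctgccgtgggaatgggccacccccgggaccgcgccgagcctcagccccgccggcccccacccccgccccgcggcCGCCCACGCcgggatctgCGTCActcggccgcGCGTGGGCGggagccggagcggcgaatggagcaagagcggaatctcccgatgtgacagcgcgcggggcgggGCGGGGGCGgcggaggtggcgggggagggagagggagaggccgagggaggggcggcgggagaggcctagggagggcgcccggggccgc
Fos: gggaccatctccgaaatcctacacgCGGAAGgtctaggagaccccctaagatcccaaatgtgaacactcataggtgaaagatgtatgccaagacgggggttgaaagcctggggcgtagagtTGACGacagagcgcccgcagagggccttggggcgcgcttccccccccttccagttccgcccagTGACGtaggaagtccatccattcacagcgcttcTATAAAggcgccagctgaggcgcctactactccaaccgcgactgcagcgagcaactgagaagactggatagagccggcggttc

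The Jun window held TGACATCA 45 bases before the start, and 3.62% of 32851 windows of all genes held it. Nab1 held 3 matches to the Egr element, 141, 109 and 38 bases before the start, in a window of 81.7% G and C, and 5.55% of all windows held at least 1. TGACG was found in Junb, 106 bases before the start, in Nab1, 123 bases before it, and in Fos, 129 and 66 bases before it, and 20.8% of all windows held it. The ETS core stood in Fos, 225 bases before the start, in Junb, 22 bases before it, and in 16.9% of all windows. The TATA element stood 33 bases before the start of Fos and at the annotated start of Junb, and 13.6% of all windows held it. The AP-1 element, the PU.1-like core, the BCL11A-like core and the CArG box were not found in these 4 windows, and 5.2%, 28.3%, 13.6% and 1.63% of all windows held them. The windows begin 250 bases before the start, so they cannot show whether these genes have such elements farther upstream. Windows of Egr2, not shown here, held a CArG box and a PU.1-like core. A match here describes letters and says nothing of binding.

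Other immediate early genes were more often lower than higher in TB14. Of 32 listed genes 26 were tested, each by its brightest probe set, and in TB14 17 were lower, 2 higher and 7 not called, where 21.5% of 11223 genes were lower and 27% higher. Sgk1 and Ptgs2, among the 17, lay above the array median in Trib1 alone and passed the filter through it, so their place among the lower is no support. The list's median log2 change was -0.21, against -0.0024 for all genes. Ier3, a survival gene of the immediate early response, averaged 1277 ± 123 in TB13, 951 ± 16.0 in TB14 and 2707 ± 111 in Trib1 (SD, n = 4 each), a change of -1.50 in TB14 (limma adjusted p = 1.32e-15). Klf2, a Krüppel-like factor, changed by -1.20 and Zfp36l1, an mRNA decay factor, by -0.63. The 2 that rose in TB14, named after their values were seen, were Dusp2, a nuclear phosphatase of MAP kinases, by 1.05 and the stress gene Gadd45b by 0.30.

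In TB13 the same list gave 18 lower and 7 higher as deposited, where 63.6% of all genes were lower and 29% higher. After quantile scaling 14 were lower and 9 higher in TB13, where 38.3% of all genes were lower and 42% higher. The list holds Trib1, which all 3 lines are labelled as expressing. Trib1 was among the higher in TB13, by 0.30 as deposited and 0.16 after quantile scaling, and was not called in TB14. Its probe set was dim, averaging 34.0 in TB13 and 25.2 in the Trib1 line. The array medians were higher too in TB13, at 25.5 to 25.9 against 21.1 to 21.4, and their part was not tested. The other Trib1 probe set, at 14.4 to 19.0 over all arrays, was not tested. In TB13 Klf2 changed by -1.46 as deposited and -1.47 after quantile scaling, Ier3 by -1.08 and -0.86, and Zfp36l1 by -1.45 and -0.74. Nr4a1, an orphan nuclear receptor of the immediate early response that was picked after its values were seen, averaged 195 ± 19.1 in TB13, 108 ± 5.81 in TB14 and 118 ± 3.19 in Trib1. Like Egr3 it was higher in TB13, by 0.66 as deposited (limma adjusted p = 2.88e-09) and by 1.34 after quantile scaling, and not called in TB14 (-0.11; limma adjusted p = 0.137).

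The partners of Fos and Jun, which form the other AP-1 dimers, changed both ways. Of 15 listed AP-1 partners 13 were tested, and in TB14 4 were lower, 2 higher and 7 not called, with a median of -0.047. Of all genes 21.5% were lower in TB14 and 27% higher. Jdp2, a dimerization protein that represses AP-1 sites, changed by -0.66 in TB14, and in TB13 by -1.17 as deposited and -0.43 after quantile scaling. It averaged 225 ± 18.8 in TB13, 324 ± 11.8 in TB14 and 519 ± 15.1 in Trib1. Fosl2, a Fos relative, changed by -0.20 in TB14, and in TB13 by -1.28 and -0.96. The small Maf factor Mafg changed by -0.37 in TB14, and in TB13 by -1.09 and -0.33. Mafk was the other lower partner in TB14, at -0.25, and Atf7 and Atf2, of the ATF family, were the higher ones, at 0.54 and 0.26. In TB13 4 were higher and 7 lower as deposited, and 5 higher and 5 lower after quantile scaling. These TB13 counts lay near the shares of all genes given above.

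Genes upstream of the immediate early response changed both ways in TB14. The shares of all genes to set beside the 3 lists here are 21.5% lower and 27% higher in TB14. Of 11 factors that drive these promoters 8 were tested, and 3 were lower (Atf1, Elk4 and Mrtfa, by -0.23, -0.21 and -0.20) and 1 higher (Creb1, 0.51). Elk3 changed by 0.087 in TB14 without a call (limma adjusted p = 0.447) and in TB13 by -1.03 as deposited and -0.52 after quantile scaling. In the Ras-Raf-ERK cascade 10 of 18 genes were tested, and 5 were higher and 3 lower in TB14, with a median of 0.099. The Ras exchange factor Sos2 changed by -0.29, the adaptor Shc1 by -0.18 and the kinase gene Rps6ka3 by 0.19. In the JNK and p38 cascade, whose kinases activate Jun and the ATF factors, 9 of 10 were tested, and 3 were higher (Mapk9, Map3k7 and Map2k6, by 0.31, 0.26 and 0.25) and 1 lower in TB14 (Map3k5, -0.45). Map2k6 lay above the array median in TB14 alone and passed the filter through it. Map2k4 changed by -0.023 without a call (limma adjusted p = 0.621).

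Of 12 feedback genes of the ERK pathway 8 were tested. In TB14 2 were lower, the ERK phosphatase gene Dusp6 at -1.23 and Spry2 at -0.14, where 21.5% of all genes were lower. Another 2 were higher, the ETS factor Etv5 at 0.79 and Spred2 at 0.098, where 27% of all genes were. After quantile scaling 1 was lower and 1 higher in TB14. Spry2 was dim, above the array median on none of the TB14 arrays, and its adjusted p by limma was 0.0474. Dusp6 averaged 109 ± 4.64 in TB13, 220.3 ± 7.21 in TB14 and 533 ± 16.3 in Trib1 (SD, n = 4 each), and changed in TB13 by -2.17 as deposited and -1.47 after quantile scaling. Rasa2 changed in TB13 by -1.80 and -1.61 on these scales and Spred1 by -1.15 and -0.53, and neither was called in TB14 (0.031 and -0.033). In TB13 5 were lower and 2 higher as deposited, where 63.6% of all genes were lower and 29% higher. After quantile scaling 4 were lower and 4 higher in TB13, where 38.3% of all genes were lower and 42% higher.

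**Figure D4:**
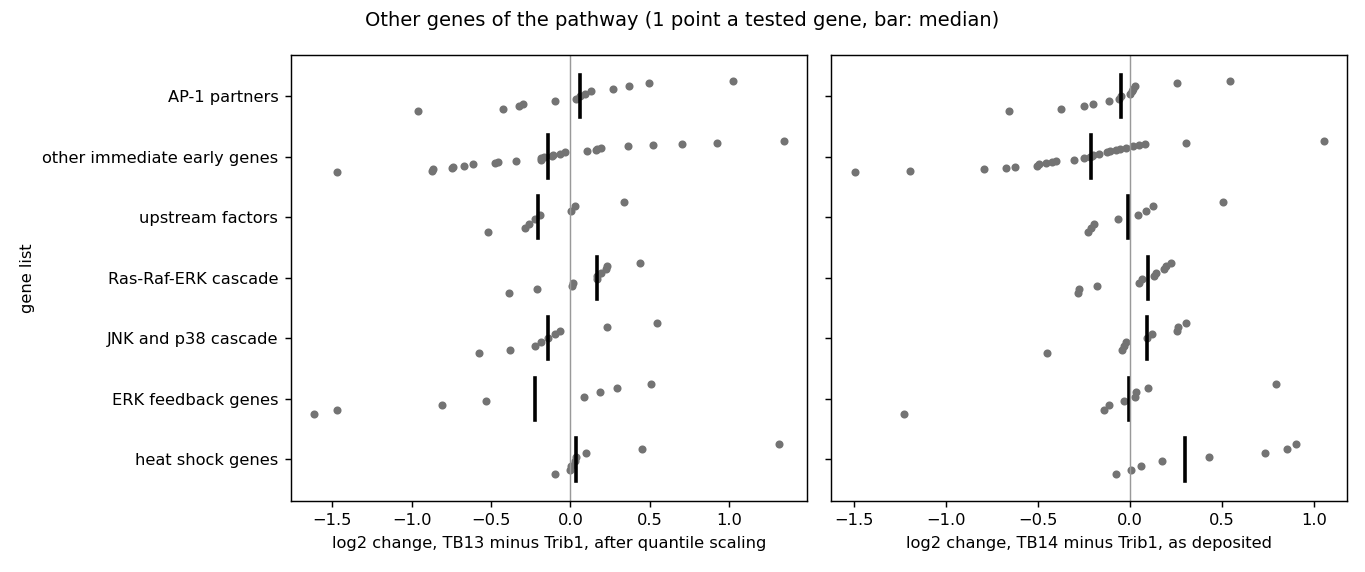
Log2 change against Trib1 of the tested genes of 7 lists, with 1 point a gene and a black bar at the median, for TB13 after quantile scaling on the left and TB14 as deposited on the right. In TB14 the other immediate early genes have a median of -0.21 and heat shock genes of 0.30, and the Ras-Raf-ERK cascade of 0.099.

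Immediate early genes also respond to the handling of cells, and heat shock genes were read as a second measure of stress. Of 10 listed 8 were tested, and in TB14 6 were higher and 2 not called, with a median of 0.30, where 27% of all genes were higher. Bag3, a co-chaperone, averaged 31.8 ± 2.83 in TB13, 42.0 ± 2.02 in TB14 and 16.6 ± 0.886 in Trib1. The log2 change in TB14 was 0.90 for Bag3 and 0.73 for Hspa1b. Bag3 lay above the array median on no Trib1 array and Hspa1b in TB14 alone, so that both passed the filter through lines where they were higher. Hspb1 changed by -0.077 without a call (limma adjusted p = 0.397). In TB13 3 were higher and 3 lower as deposited, against 29% and 63.6% of all genes. After quantile scaling 3 were higher and 5 not called in TB13, against 42% of all genes higher on that scale. Hspb1 changed in TB13 by 0.83 as deposited and 1.32 after quantile scaling, and Bag3 by 0.60 and 0.45. Whether handling had a part in the levels of the Egr, Fos and Jun genes was not tested. The 3′ to 5′ ratio of the Actb controls, a measure of RNA quality, was 1.11 to 1.12 in TB13, 1.01 to 1.03 in TB14 and 1.04 to 1.06 in Trib1.

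The genes on either side of the known circuit were read once. Spi1 lay between 237 and 293 in TB13, 432 and 446 in TB14, and 551 and 587 in Trib1, the same order of lines as Nab1 and the brighter Jun probe set as deposited. It changed by -0.37 in TB14 (limma adjusted p = 2.66e-06). In TB13 Spi1 changed by -1.11 as deposited (limma adjusted p = 5.80e-14) and by -0.38 after quantile scaling (2.30e-06), close to the TB14 change. The place of TB13 below TB14 thus rested on the scaling for Spi1. Gfi1 lay between 36.1 and 46.9 in TB13, 147 and 152 in TB14, and 32.3 and 36.2 in Trib1. Gfi1 changed by 1.75 in TB14 (limma adjusted p = 6.66e-15). In TB13 it changed by 0.18 as deposited (0.00782), and the call ended after quantile scaling (0.13; limma adjusted p = 0.129).

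The genes whose values were most like those of Egr1 over the 12 arrays, out of 11215, were Ccr1, Tmem154, Tyrobp, Tmem51 and Grn, with Pearson correlations of 0.999, 0.998, 0.997, 0.997 and 0.997 on the log2 scale after quantile scaling. These rest mainly on 3 lines, since arrays of a line share their cells, and are a description. As deposited, Tmem154 averaged 127 in TB13, 153 in TB14 and 663 in Trib1, close to Egr1 at 129, 154 and 602. After quantile scaling, on which the correlations rest, Egr1 was lower in TB14 than in TB13 (-0.49), so these means do not show that order. Ccr1, a chemokine receptor, averaged 651 in TB13, 806 in TB14 and 1537 in Trib1, also as deposited.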

How the data were processed

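The authors deposited linear intensities, made with MAS5 per the submitters' processing notes. No version or scaling target is given in the sources used here. RNA (100 ng) was labelled with biotin per the labels' protocols. Of 45141 probe sets, 104 were controls, 28898 had 1 gene in the platform annotation, 551 several and 15588 none, and no symbol changed when updated by gene identifier. Intensities were taken to log2 after adding 12.7, the 25th percentile of all values, and used as deposited. limma 3.58.1 in R 4.3.3 fitted 3 line means to all 12 arrays, with a variance trend. Genes of lists were read from the brightest probe set, in a fit of 11223 genes. Members and lists were chosen with earlier results of these data known. Named were all members, Spi1, Gfi1, Bcl11a and Trib1, the 3 largest called changes over both lines in each list, and the 5 genes most like Egr1, and others are marked in the text or complete a count of 5 or fewer. In simulated data for TB14 against Trib1 with 17475 probe sets, 76% of 50 changes of 1.2-fold and 100% of 1.5-fold changes were recovered, and 10 unchanged probe sets were called. The simulation had independent normal noise, far fewer changed probe sets than were called in the data, and no spread between cultures. It therefore does not give the error rate of the calls above. Within a line arrays correlated at 0.9953 or above, and their number limits the precision. The Trib1 probe sets read 14.4 to 40.1. Alternatives were other scalings, filters, pseudocounts (1 and 50), variance models, a replicate block, other uses of probe sets, a 2-fold threshold, line means and left-out arrays. Figures used matplotlib 3.10.9.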

Additional observations from a re-analysis of the deposited data

Results flagged for a closer look

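In Egr3, 1 TB13 array stood apart from the other 3, with 79.8 against 91.2 to 91.4, a gap of 0.976 of the range of that line. The second Nab1 probe set had 1 higher TB14 array, with 229.7 against 219.6 to 219.9 (0.966 of the range), and Ier2 had 1 lower TB14 array, with 675 against 692 to 694 (0.852). These 3 came from 42 sets of 4 arrays, and chance gives about 1 in 20. Nab2 was called lower in TB13 and higher in TB14 against the same Trib1 arrays, and the difference itself, TB14 minus TB13, was 0.336 on the log2 scale (limma adjusted p = 1.28e-06).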

How the results depend on the processing

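Of 984 comparisons of a member's log2 change with its value under an alternative, 934 kept direction and call, 20 lost the call, 14 gained it and 16 changed sign. Of these, 480 left out an array, at times one outside the contrast, where the change itself cannot move, and 472 kept both. The pooled count thus says little of the scaling. After quantile scaling 31 kept both, 4 changed sign, 2 lost the call and 3 gained it. Under calibration 16 kept both and 8 changed sign. Counts are of 10 tested probe sets, but of 6 under calibration on the hybridization controls, which gives no value to the 4 dimmer ones. In TB13 against Trib1 the 2 higher became 1 under calibration, 4 with no filter, 1 with the stricter filter and 0 at 2-fold, and the 8 lower became 4 under calibration and 4 at 2-fold. Of all 17475 probe sets, 4542 were higher and 11262 lower as deposited, and 13166 and 1907 under calibration. With no filter 12230 of 28898 were higher, and with the stricter filter 1461 of 12261. In TB14 against Trib1 the 2 higher became 0 under calibration, with the stricter filter and at 2-fold, and ranged from 1 to 2 with an array left out, and the 7 lower became 2 at 2-fold. Of all 17475 probe sets, 5169 were higher as deposited and 3818 under calibration. With the stricter filter 4427 of 12261 were higher. Over both lines the 2 higher became 0 under calibration, 1 with the stricter filter and 0 at 2-fold. The 7 lower became 2 at 2-fold. Of all 17475 probe sets, 4533 were higher as deposited and 12802 under calibration. With the stricter filter 1727 of 12261 were higher. In TB14 against TB13 the 7 higher became 0 under calibration and 1 at 2-fold, and the 1 lower became 4 after quantile and 4 after cyclic loess scaling, 5 under calibration, 3 with no filter and 0 at 2-fold. All probe sets moved too, from 11385 higher and 4550 lower as deposited to 2378 and 12542 under calibration. After quantile scaling 6274 were lower, after cyclic loess 6341, and with no filter 12326 of 28898. Fewer probe sets under the stricter filter and calibration, and more with no filter, account for part of this, and the cause of the rest was not tested. Line means left 1 sample without Bcl11a, so counts under them are not given. Shares of all probe sets at 2-fold were not computed.

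Changes of sign all involved TB13. In TB14 against TB13 the values after quantile scaling, cyclic loess and calibration were -0.49, -0.59 and -0.83 for Egr1, -0.40, -0.51 and -0.96 for Junb, -0.41, -0.45 and -0.50 for Ier2, and -0.037, -0.024 and -0.14 for the brightest Nab1 probe set. Calibration alone gave -0.026 for the second Nab1 probe set and -0.30 for the brighter Jun probe set. In TB13 against Trib1 it gave 0.32 for Junb and 0.063 for Ier2. With the replicate number as a block the counts were 2 higher and 8 lower in TB13, 2 and 7 in TB14, 2 and 7 over both lines, and 7 and 1 in TB14 against TB13, as without it. Of 12 same-numbered pairs, 1 correlated above 0.1 in their deviations (-0.095 to 0.13). Other pairs were not compared, so this cannot say whether same-numbered arrays were handled together. Dim signal limited Egr2, Fosb and Nab2.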
